A study of Mus musculus with 8 samples.

Results

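The EGF receptor system was followed through 10 genes, namely the receptor genes Egfr, Erbb2 and Erbb3, the ligand genes Areg, Ereg, Epgn, Hbegf, Tgfa and Btc, and Errfi1, which encodes an inhibitor of the receptors. They were chosen by gene symbol out of 24755 symbols listed in either of the 2 deposited expression tables. The table of hair follicle stem cells (HFSCs) gave values for 8 of the 10 genes and the table of epidermal stem cells (EpdSCs) for 9, with 7 genes in both. Areg and Epgn in HFSCs and Ereg in EpdSCs were not analysed here.

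The study used bulk RNA-seq to ask how the homeobox factor Msx2 acts on skin stem cells around the shedding of the hair. HFSCs were sorted from dorsal skin as CD34+CD49f+Sca-1- cells and EpdSCs, labelled epidermal progenitor cells, as CD34-CD49f+Sca-1+ cells, all in telogen, the resting phase of the hair cycle. There were 4 groups of 2 libraries each. WT HFSCs came from mice 2 months old, and Msx2-KO HFSCs, WT EpdSCs and Msx2-KO EpdSCs from mice 6 months old. The WT mice were C57BL/6J animals matched by hair cycle. The Msx2-KO mice were homozygous for a germline allele with a neo cassette inserted ahead of exon 2, so every cell type of these mice carried it. In HFSCs, age and genotype changed together and cannot be told apart. Library names also split by genotype, with the prefixes YC in WT and Ch in Msx2-KO HFSCs, and separate number ranges in EpdSCs. What these names stand for is not given, and any difference behind them cannot be told apart from genotype in either cell type. The sources used here do not say whether the 2 libraries of a group came from separate mice, so p-values measure only the spread between these libraries, which may be technical.

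EGF family ligands are made as membrane-anchored precursors, and ADAM proteases cut them loose. They bind EGFR, which pairs with itself or with ERBB2, a receptor with no known ligand of its own, or with ERBB3, which binds neuregulins and has little kinase activity. In skin this system is known for keeping basal keratinocytes proliferating and for delaying their differentiation, and the keratinocytes themselves make several of the ligands. Errfi1, also called Mig6, is induced by receptor signalling and blocks the receptor kinase.

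The HFSC libraries held 3132974 to 11016659 estimated counts, of which 1456880 to 3624698 fell in the 11863 nuclear protein-coding genes listed in both tables. The EpdSC values were deposited after normalization and summed to 14216483 to 24694442 per library. Mitochondrial ribosomal RNA took 8.94% and 36.3% of WT and 49.4% and 53.2% of Msx2-KO HFSC counts, and 23.5% and 16.4% of WT EpdSC values against 0.0730% and 6.18% in Msx2-KO. Lhx2, a defining factor of HFSCs, ran from 360 to 578 CPM of those coding genes (coding CPM) in the HFSC libraries and from 0.290 to 3.82 in the EpdSC libraries, whereas Krt15 was high in both, at 5617 to 10975 and at 8055 to 14662. Among the sorting markers, Cd34 was followed in HFSCs only, at 491 and 436 normalised CPM in WT against 177 and 144 in Msx2-KO, and Ly6a, which encodes Sca-1, in EpdSCs only, at normalized values of 472 and 544 in WT against 826 and 3493 in Msx2-KO. Itga6, which encodes CD49f, lay at 166 and 189 in WT HFSCs against 122 and 81.7 in Msx2-KO HFSCs, and at 8229 and 9959 in WT EpdSCs against 68397 and 32855 in Msx2-KO EpdSCs. Msx2 itself had 53 and 7 estimated counts in WT HFSCs against 40 and 18 in Msx2-KO HFSCs (log2 fold change -0.20, standard error (SE) 1.23, edgeR adjusted p = 0.975). In EpdSCs it had normalized values of 58.5 and 85.4 in WT against 150 and 22.2 in Msx2-KO. The paper reports by in situ hybridization that Msx2 RNA was absent in Msx2-KO mice. Counts per gene do not separate exons, and with groups that overlapped in both cell types no fall of Msx2 was shown here. The libraries are therefore called Msx2-KO by their labels alone. Fold changes are Msx2-KO over WT throughout, and adjusted p-values are Benjamini-Hochberg values over all genes tested, from edgeR in HFSCs and limma in EpdSCs.

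The ligand genes Epgn, Ereg, Areg and Btc lie in a single stretch of 375.5 kb on mouse chromosome 5 (GRCm38), in which they are the only 4 protein-coding genes of 7 annotated genes. Epgn runs from 91027464 to 91035215, Ereg from 91074622 to 91093646 and Areg from 91139599 to 91148432, all on the plus strand, and Btc from 91357261 to 91402994 on the minus strand. Of the other 3 genes of the stretch none had a row in either table. Hbegf lies on chromosome 18 (36504927 to 36515805, minus strand), Tgfa on chromosome 6 (86195223 to 86275719, plus), Egfr on chromosome 11 (16752203 to 16918158, plus), Erbb2 on chromosome 11 (98412470 to 98437716, plus), Erbb3 on chromosome 10 (128567523 to 128589652, minus) and Errfi1 on chromosome 4 (150853919 to 150868892, plus). All 10 are protein-coding, and the counts are of their exons.

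RefSeq start sites of GRCm38.p6 gave an upstream window of 250 bases for 7 of the 10 genes. The windows of Areg and Btc are shown because both ligands were lower in the libraries labelled Msx2-KO of EpdSCs, as described further on. The Errfi1 window is shown because it was the only window of these genes with the letters TAATTG, the core that homeodomains of the Msx family recognise. Each is written 5′ to 3′ on the strand of its gene and ends at the base before the start site, and capitals mark motif letters found on either strand.

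Areg, chr5:91139349-91139598, plus strand: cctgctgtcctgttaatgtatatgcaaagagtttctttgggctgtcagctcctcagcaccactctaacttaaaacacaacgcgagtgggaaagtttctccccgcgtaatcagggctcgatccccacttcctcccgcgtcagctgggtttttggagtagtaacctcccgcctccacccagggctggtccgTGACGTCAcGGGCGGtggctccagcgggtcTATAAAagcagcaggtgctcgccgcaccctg

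Btc, chr5:91402995-91403244, minus strand: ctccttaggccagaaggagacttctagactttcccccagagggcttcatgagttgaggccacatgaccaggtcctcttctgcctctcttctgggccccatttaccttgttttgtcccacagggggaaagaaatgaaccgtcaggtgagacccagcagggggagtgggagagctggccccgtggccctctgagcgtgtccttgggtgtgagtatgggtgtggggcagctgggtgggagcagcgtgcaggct

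Errfi1, chr4:150853546-150853795, plus strand: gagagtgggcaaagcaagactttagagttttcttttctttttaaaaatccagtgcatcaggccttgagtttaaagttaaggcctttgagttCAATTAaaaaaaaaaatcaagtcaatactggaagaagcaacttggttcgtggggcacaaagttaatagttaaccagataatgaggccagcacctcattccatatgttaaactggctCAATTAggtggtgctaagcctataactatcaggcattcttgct

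The Areg window holds the cAMP response element letters TGACGTCA, starting 61 bases before the start site, the GC box letters GGGCGG at 52 bases and the TATA box letters TATAAA at 31 bases. The Btc window holds none of the motifs searched. The Errfi1 window holds TAATTG on the opposite strand at 159 and at 43 bases, and a second Errfi1 start site has TGACGTCA at 51 bases and TATAAA at 28 bases. Over all 32851 windows of the same length, 1.55% hold TGACGTCA, 12.4% TATAAA, 32.7% GGGCGG and 7.17% TAATTG, and 4.46% hold the AP-1 letters TGACTCA, which none of the windows of these genes holds. A match of letters is a description of the window, not a binding site.

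Receptor RNA was plentiful and ligand RNA scarce in all 8 libraries. Levels were compared between genes as a level per kb of exon, scaled to the sum over the 11863 shared coding genes (TPM-like units). The summed level of the 3 receptors ran from 294 to 955, and that of the ligands from 0 to 61.2, with 4 ligands followed in HFSCs and 5 in EpdSCs. In every library each receptor gene lay above each ligand gene.

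**Figure D1:**
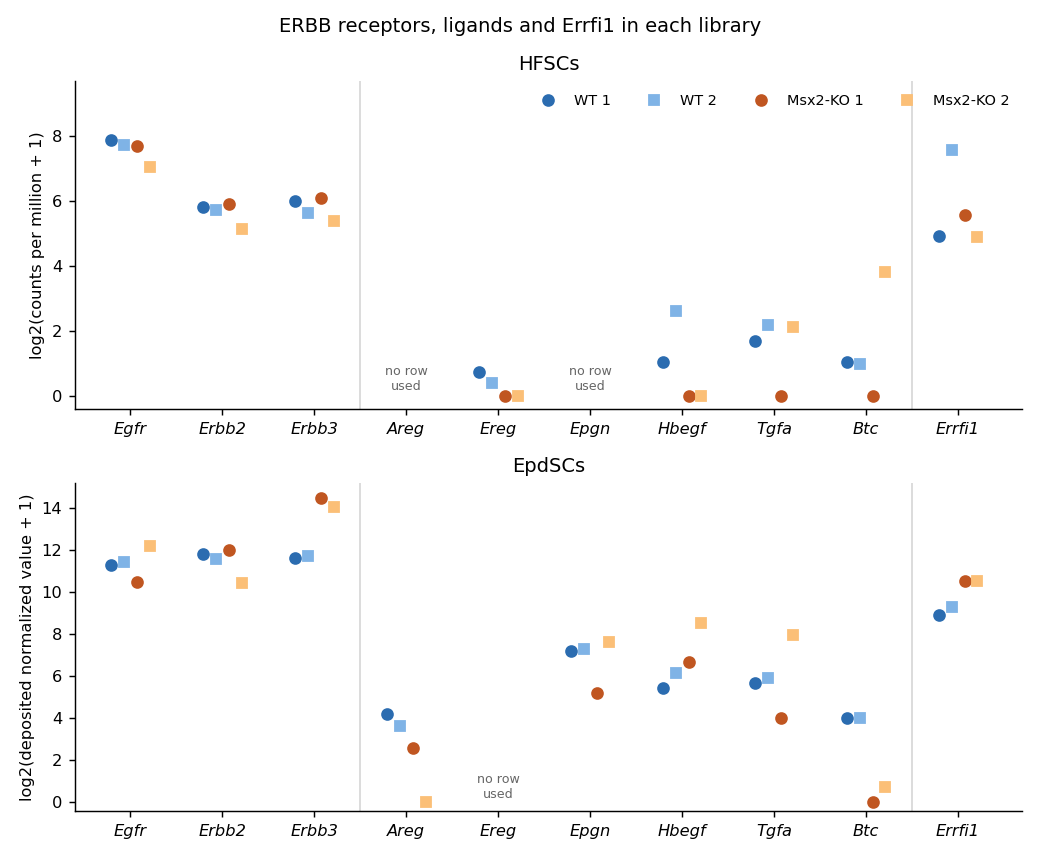
Level of each gene in each library, on a log2 scale after adding 1. The upper panel gives normalised CPM in HFSCs and the lower panel the deposited normalized values in EpdSCs. Circles and squares are replicates 1 and 2, blue is WT and orange Msx2-KO, and genes without a row used are named as such. In EpdSCs both Msx2-KO points of Erbb3 lie above both WT points, and both Msx2-KO points of Areg and Btc lie below.

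The order of the receptors differed between WT HFSCs and WT EpdSCs. In WT HFSCs Egfr led them, at levels per kb of 226 and 166, above Erbb2 at 116 and 89.6 and Erbb3 at 115 and 73.3, and the libraries of Erbb2 and Erbb3 overlapped. In WT EpdSCs Erbb2 led, at 271 and 241, followed by Erbb3 at 204 and 233 and Egfr at 86.5 and 101, with no overlap between neighbours. Egfr thus stood at the 95.4th and 93.4th percentile of the coding genes in WT HFSCs and at the 82.9th and 85.4th in WT EpdSCs. The mean level of Egfr in WT HFSCs was 2.10 times that in WT EpdSCs, and the levels of Erbb2 and Erbb3 were 2.48 and 2.32 times higher in WT EpdSCs than in WT HFSCs. These ratios set tables that were normalized separately, from mice of different ages, side by side and were not tested.

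Errfi1 stood among or next to the receptors, and the ligands followed in the order of levels. Errfi1 had levels per kb of 90.6 and 477 in WT HFSCs, with the highest mean of the 8 genes and a spread that overlapped Egfr. In WT EpdSCs it had 52.8 and 71.0, below the receptors without overlap. Epgn, which encodes epigen, was the most abundant ligand of WT EpdSCs, at 32.0 and 36.2. Areg, at 5.60 and 3.90, Hbegf, at 3.43 and 5.96, and Tgfa, at 3.02 and 3.77, each overlapped the next of the 3 in that order. Btc was lowest at 1.32 and 1.40, below Tgfa without overlap. In WT HFSCs Hbegf, Tgfa, Btc and Ereg had levels from 0.702 to 9.60.

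In HFSCs none of the receptor genes passed the test. Egfr, the receptor that all 6 ligands bind, had 234 and 210 normalised CPM in WT against 208 and 131 in Msx2-KO. Both Msx2-KO libraries lay below both WT libraries, the first of them by little, and on the level per kb the groups overlapped. The log2 fold change was -0.38 (SE 0.31, edgeR adjusted p = 0.683). Erbb2 had 55.4 and 52.0 in WT against 58.9 and 34.6 in Msx2-KO, and Erbb3 had 63.1 and 49.1 in WT against 67.2 and 40.8 in Msx2-KO. For both genes Msx2-KO replicate 1 was the highest library and replicate 2 the lowest. Their log2 fold changes were -0.20 (SE 0.37, adjusted p = 0.902) and -0.06 (SE 0.37, adjusted p = 0.976). When libraries were scaled to their totals, Egfr, Erbb2 and Erbb3 had log2 fold changes of -1.23, -1.03 and -0.92, and the median over all genes shifted by -0.86.

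Among the ligands of HFSCs, Hbegf and Ereg were at 0 counts in both Msx2-KO libraries. Hbegf, which encodes heparin-binding EGF-like growth factor, had 8 and 16 estimated counts in WT. Taking 3 counts over the group as the floor, a bound for counting error only put it at least 10.5-fold below the pooled WT libraries. That bound was 4.95-fold against WT replicate 1 alone and 24.0-fold against WT replicate 2 alone. It leaves out how many genes each library detected. Genes above 0 counts numbered 22867 and 20229 in WT HFSCs against 11749 and 14616 in Msx2-KO HFSCs. Sos2, for example, had 255 and 128 counts in WT against 0 and 54 in Msx2-KO. Hbegf passed the filter on low counts through its WT libraries only, so no p-value is given for it. Ereg, which encodes epiregulin, had 5 and 1 counts in WT, at least 2.63-fold above the same floor when pooled and 3.09-fold with WT replicate 1 alone, and did not pass the filter on low counts. Against WT replicate 2 alone, at 1 count, the bound was lower than when pooled.

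Tgfa and Btc were both at 0 counts in Msx2-KO replicate 1 of HFSCs. Tgfa, which encodes TGF-α, had 17 and 11 counts in WT against 0 and 16 in Msx2-KO (log2 fold change -0.79, SE 2.21, edgeR adjusted p = 0.938). Btc, which encodes betacellulin, had 8 and 3 in WT against 0 and 62 in Msx2-KO, so its log2 fold change of 2.66 (SE 2.699, edgeR adjusted p = 0.765) rested on Msx2-KO replicate 2. Without Msx2-KO replicate 1 that value was 3.62 and passed (adjusted p = 0.0132, range 0.0132 to 1.00 over the alternatives), whereas it was 0.78 with limma-trend and -0.29 with the replicate block. Counts this low cannot show changes of the size seen for the receptors.

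Errfi1 in HFSCs was set apart by WT replicate 2. It had 29.6 and 190 normalised CPM in WT against 46.9 and 29.1 in Msx2-KO, so the groups overlapped. The log2 fold change of -1.52 (SE 0.96, edgeR adjusted p = 0.561) turned to 0.26 without that library, and was -2.35 and past the threshold without WT replicate 1 (adjusted p = 0.0279, range 0.0279 to 1.00 over the alternatives). The 10 immediate early genes listed as markers of acute stimulation or handling summed to 1965 and 9270 coding CPM in WT against 1568 and 745 in Msx2-KO, with Fos at 127 and 1835 in WT against 18.2 and 12.8 in Msx2-KO. By normalised CPM 6 of the 10 lay below WT without overlap and 4 overlapped, and none was at 0 in any HFSC library. WT replicate 2 was thus the highest library for Errfi1, Hbegf and the immediate early sum alike, and the part of that library's state in the 2 genes was not tested.

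**Figure D2:**
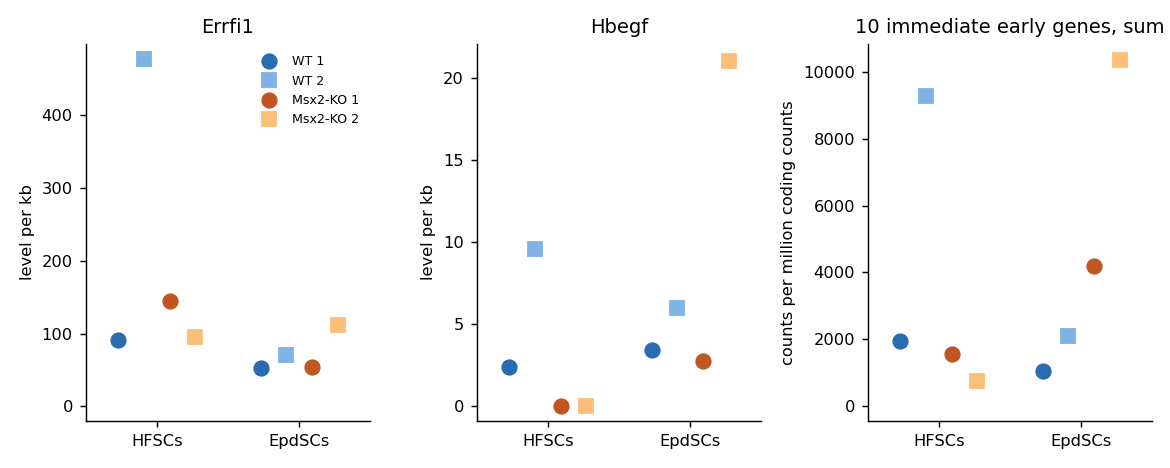
Levels of Errfi1 and Hbegf per kb of exon, and the sum of 10 immediate early genes in coding CPM, in each library, on linear axes. Circles and squares are replicates 1 and 2, blue is WT and orange Msx2-KO. WT replicate 2 of HFSCs and Msx2-KO replicate 2 of EpdSCs stand highest of their cell type for Hbegf and for the immediate early sum.

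None of the 7 genes tested in HFSCs was called, that is none had an adjusted p under 0.05 with a fold change over 2. The share of all 14422 genes tested that was called was 0% by edgeR, with 2614 genes (18.1%) at an unadjusted p under 0.05. DESeq2 called 690 genes and limma-trend 1407, none of the 7 among them. Leaving aside Hbegf, both Msx2-KO libraries lay below both WT libraries for 1 of the other 6, Egfr, beside 33.5% of all genes, and above for 0, beside 17.5%. The shares over all genes still hold genes that, like Hbegf, passed the filter on low counts through 1 group only. Fewer cells of a kind and less RNA per cell cannot be told apart in bulk samples. Markers of other cells differed in level between these libraries, with 5 suprabasal genes summing to 392 and 420 coding CPM in WT against 1820 and 7351 in Msx2-KO, 1 of them (Lor) at 0 in 3 libraries. Most of the WT sum was Sbsn, which overlapped, at 261 and 360 in WT against 157 and 409 in Msx2-KO. The infundibular and sebaceous list summed to 384 and 569 in WT against 6264 and 5180 in Msx2-KO, all 5 genes above WT. The HFSC markers summed to 14678 and 12715 in WT, against 8372 and 9336 in Msx2-KO, with 6 of 7 below WT. The melanocyte, Schwann, fibroblast, endothelial and immune lists each summed to at most 136 in any HFSC library. Their part in the values above was not tested.

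**Figure D3:**
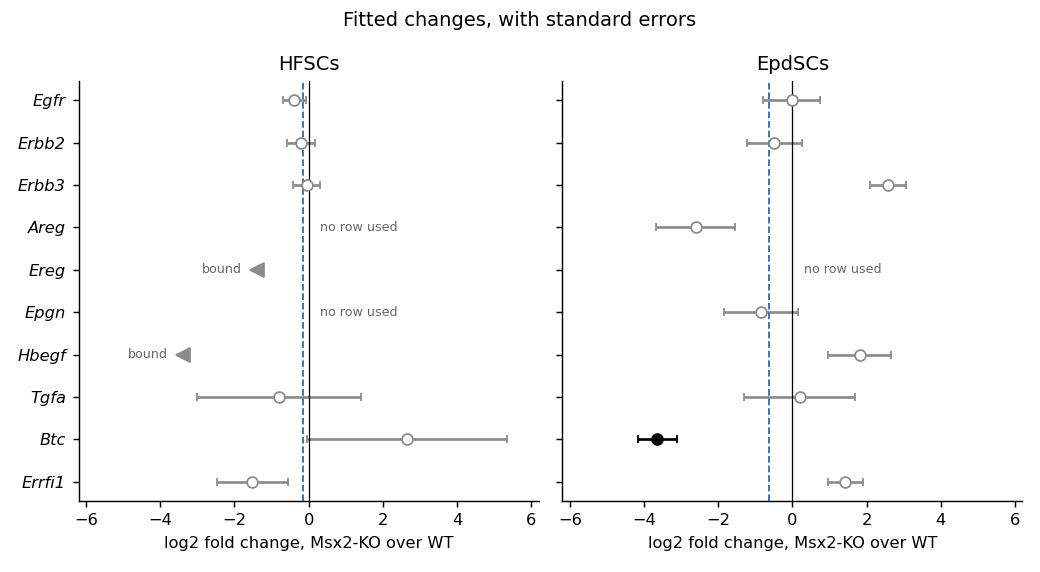
Log2 fold change of each gene, Msx2-KO over WT, from edgeR in HFSCs and limma in EpdSCs, with bars of 1 standard error. The filled point passed the threshold, and triangles are bounds, for counting error only, of genes at 0 counts in both Msx2-KO libraries. The dashed line is the median of all genes tested, at -0.14 in HFSCs and -0.64 in EpdSCs. Btc in EpdSCs is the only filled point, and Erbb3 in EpdSCs is the highest open one with a bar that stays above 0.

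In EpdSCs Erbb3 made up most of the receptor RNA of the libraries labelled Msx2-KO. Erbb3 had normalized values of 3121 and 3364 in WT against 22505 and 16774 in Msx2-KO, and both Msx2-KO libraries lay far above both WT libraries. WT libraries had 3242 ± 172 (SD, n = 2) and Msx2-KO libraries 19639 ± 4052 (SD, n = 2), a log2 fold change of 2.58 on the log2(value + 1) scale (SE 0.48, unadjusted p = 0.00684, limma adjusted p = 0.0586). This missed the threshold over all genes. With every library kept, the limma adjusted p ran from 0.0369 to 0.113 over the alternatives. Erbb3 passed with an intensity trend in the prior variance (0.0369) and with a pseudocount of 10 (0.0417). It missed most widely with the replicate block (0.113). Whether Erbb3 passed also depended on the library left out. Its log2 fold change was 2.53 and 2.64 without WT replicate 1 or 2, and 2.37 and 2.80 without Msx2-KO replicate 1 or 2.

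All genes of EpdSCs together had a median log2 fold change of -0.64 in the deposited scaling, -0.88 with library totals and -1.32 with totals over coding genes. Set against that median, Erbb3 was higher by 3.22, 3.19 and 3.18 on the log2 scale in these 3 scalings. Egfr and Erbb2 lay 0.62 and 0.15 above the median in the deposited scaling and 0.58 and 0.11 above it with coding totals. The sign of their own log2 fold changes was negative in all 3 scalings.

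Egfr and Erbb2 in EpdSCs were split between the Msx2-KO libraries. Egfr had 2492 and 2744 in WT against 1434 and 4672 in Msx2-KO, the lowest and the highest library of the 4 (log2 fold change -0.01, SE 0.77, limma adjusted p = 0.991). Erbb2 had 3591 and 3017 in WT against 4019 and 1374 in Msx2-KO, again the highest and the lowest (log2 fold change -0.49, SE 0.73, limma adjusted p = 0.644). Msx2-KO replicate 1 was thus low in Egfr and replicate 2 low in Erbb2, while both were high in Erbb3. Per kb, both Msx2-KO libraries lay below WT for Erbb2, at 271 and 241 in WT against 103 and 72.7, so the overlap depended on the scaling.

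Ratios between the receptors within a library do not depend on how libraries are scaled. Per kb of exon, Erbb3 made up 36.3% and 40.5% of the RNA of the 3 receptors in WT EpdSCs and 80.6% and 80.5% in Msx2-KO EpdSCs. In HFSCs the share of Erbb3 was 25.1% and 22.3% in WT against 27.3% and 27.1% in Msx2-KO. Erbb3 over Erbb2 was 0.753 and 0.966 in WT EpdSCs, 4.85 and 10.6 in Msx2-KO EpdSCs and from 0.818 to 1.02 in the 4 HFSC libraries. Egfr made up 15.4% and 17.5% in WT EpdSCs and 2.73% and 11.9% in Msx2-KO EpdSCs, against 45.0% to 50.5% in HFSCs. With 2 libraries a group, an exact permutation test of such a share cannot give a two-sided p under 0.333, and the difference between the cell types was not tested.

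**Figure D4:**
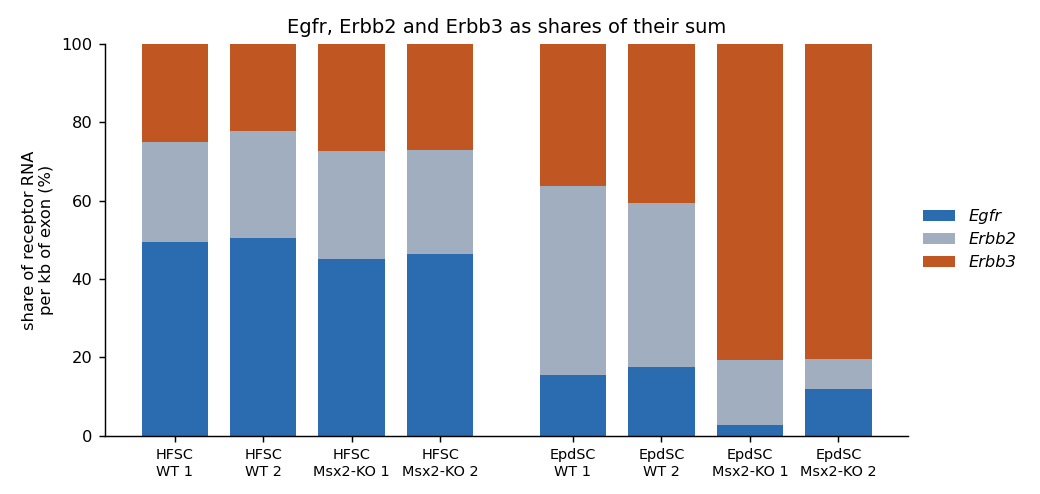
Egfr, Erbb2 and Erbb3 as shares of their summed level per kb of exon, in percent, for each of the 8 libraries. The Erbb3 share is 80.6% and 80.5% in the Msx2-KO EpdSC libraries and at most 40.5% in the other libraries.

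Melanocytes and Schwann cells are also known to make ERBB3. Of the 5 melanocyte and 6 fibroblast markers 0 were followed in EpdSCs. Of the 5 Schwann cell markers 2 were followed. Mbp had 139 and 121 coding CPM in WT against 291 and 223 in Msx2-KO, so both Msx2-KO libraries lay above WT. The other marker overlapped WT and had a log2 fold change of -1.01. Keratinocyte markers also differed in level between these libraries. The 6 markers of interfollicular basal cells summed to 19768 and 23002 in WT against 48164 and 42680 in Msx2-KO, and the 5 suprabasal markers to 27365 and 19478 in WT against 1942 and 5954 in Msx2-KO, none of either list at 0. Of the suprabasal genes, Sbsn was called lower and the other 4 had negative fitted values. The 6 immune markers summed to 80.6 and 9.37 in WT, against 0 and 0.556 in Msx2-KO, where 6 and 4 of them were at 0, and the endothelial markers followed (2 of 4) to 3.71 and 2.68 in WT, against 1.10 and 1.72. The part of these markers in the Erbb3 value was not tested.

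Of the 5 ligands followed in EpdSCs, Btc was the gene that passed the test. It had normalized values of 15.2 and 15.2 in WT against 0 and 0.674 in Msx2-KO, about 14 and 16 estimated counts against 0 and 1. Btc fell by 3.64 on the log2(value + 1) scale (SE 0.53, limma adjusted p = 0.0398). The ratio of the mean normalized values, Msx2-KO over WT, was 0.0222. The ratio of the 1 estimated count to the 30 in WT, each set against the value of a count in its libraries, was 0.0291, with a 95% Clopper-Pearson interval of 0.000712 to 0.175 that covers counting error only. The adjusted p ran from 0.00879 to 0.360 over the alternatives, and the call was lost with a pseudocount of 0.1 (0.0996) or 10 (0.0913), with the replicate block (0.0615) and without WT replicate 1 (0.360) or WT replicate 2 (0.351). A minimum mean of 10 left Btc out of the test. The interval also leaves out how many genes each library detected. Genes at about 1 estimated count or more numbered 15866 and 15935 in WT EpdSCs against 12722 and 15166 in Msx2-KO EpdSCs. The part of this in the Btc value was not tested.

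Areg, the neighbour of Btc on chromosome 5 and the gene of amphiregulin, had 17.3 and 11.4 in WT against 5.09 and 0 in Msx2-KO, about 16 and 12 estimated counts against 4 and 0. Both Msx2-KO libraries lay below both WT libraries, and the log2 fold change of -2.61 (SE 1.07, limma adjusted p = 0.175) did not pass. Epgn, from the far end of the same stretch, had 147 and 157 in WT against 35.7 and 195 in Msx2-KO, so its groups overlapped (log2 fold change -0.85, SE 0.99, adjusted p = 0.551). The ligands of the stretch therefore did not share a pattern in Msx2-KO replicate 2, in which Epgn was the highest of the 4 libraries, Areg was listed at 0 and Btc stood at 1 estimated count.

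Hbegf and Tgfa in EpdSCs were highest in Msx2-KO replicate 2. Hbegf had 42.2 and 69.2 in WT against 101 and 368 in Msx2-KO, without overlap (log2 fold change 1.81, SE 0.85, limma adjusted p = 0.210). Tgfa had 49.8 and 58.8 in WT against 15.3 and 244 in Msx2-KO (log2 fold change 0.20, SE 1.49, adjusted p = 0.931), and its sign depended on the scaling, at -0.05 with library totals and -0.49 with coding totals. On the level per kb the Hbegf groups overlapped, at 3.43 and 5.96 in WT against 2.78 and 21.0 in Msx2-KO.

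Errfi1 in EpdSCs had normalized values of 481 and 612 in WT against 1458 and 1453 in Msx2-KO, which were close to each other and above both WT libraries. The log2 fold change was 1.42 (SE 0.47, unadjusted p = 0.0427, limma adjusted p = 0.131, from 0.0417 to 0.450 over the alternatives). It passed without Msx2-KO replicate 2 and under no other setting. With coding totals the log2 fold change was 0.70, and the levels per kb overlapped, at 52.8 and 71.0 in WT against 54.3 and 112 in Msx2-KO. The immediate early genes were highest in sum in the same libraries, at 1068 and 2113 coding CPM in WT against 4190 and 10346 in Msx2-KO, with Fos at 96.0 and 308 in WT against 1424 and 1979 in Msx2-KO. By normalized value 6 of the 10 lay above WT without overlap and 1 below, Jun, at 274 and 472 coding CPM in WT against 51.0 and 120 in Msx2-KO. Atf3 was split, at 12.1 and 34.0 in WT against 0.0579 and 308 in Msx2-KO. None of the 10 was called or at 0, and their part in the Errfi1 value was not tested.

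Over the 9 genes tested in EpdSCs, 1 was called, Btc, against 9.35% of all 16231 genes tested. Of the 1518 genes called, 255 were higher and 1263 lower in Msx2-KO. Among the 9, 2 higher and 1 lower had an unadjusted limma p under 0.05, beside 35.3% of all genes tested. Both Msx2-KO libraries lay above both WT libraries for 3 of the 9 genes, Erbb3, Hbegf and Errfi1, against 27.8% of all genes, and below for 2, Areg and Btc, against 44.5%. The 9 had a median log2 fold change of -0.01, beside -0.64 for all genes. The genes called among the 9 depended on the library left out. The number called among all genes tested moved with it as well, so such calls are not read as particular to the 9.

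Genes that overlap the receptors were read beside them, because use of strand in the counting is not given in the sources used here. Egfros, an antisense gene at Egfr, had 37.4 and 25.2 normalised CPM in WT HFSCs against 25.9 and 18.9 in Msx2-KO HFSCs, and 223 and 204 in WT EpdSCs against 121 and 133 in Msx2-KO EpdSCs, below Egfr in each library. Mien1, on the opposite strand at Erbb2, had 258 and 173 in WT EpdSCs against 34.4 and 55.9 in Msx2-KO EpdSCs, again far below its neighbour. No protein-coding gene overlaps Erbb3 or the ligand genes.

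The rest of the pathway was described through 7 lists with 58 genes. In HFSCs 54 of them were tested and 0 were called, and their median log2 fold change was -0.17 against -0.14 for all genes. At an unadjusted p under 0.05 were 2 higher and 4 lower, beside 18.1% of all genes. Among these, the ligand gene Nrg4 needed its Msx2-KO libraries to pass the filter on low counts. It had 14 and 3 counts in WT against 147 and 46 in Msx2-KO. Cblc needed its WT libraries, at 45 and 23 against 2 and 1. Neither is read as a change, here or in the counts without overlap below. In EpdSCs 54 were tested and 1 was called, beside 9.35% of all genes, and their median was 0.01 against -0.64. At an unadjusted p under 0.05 were 5 higher and 5 lower, beside 35.3% of all genes. Both Msx2-KO libraries lay above WT for 11 and below for 14 of the 54 in HFSCs, beside 17.5% and 33.5% of all genes. In EpdSCs they did so for 19 and 19, beside 27.8% and 44.5%.

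The remaining receptor is ERBB4, and the neuregulins are ligands of ERBB3 and ERBB4. Nrg2 had 1.20 and 3.88 normalised CPM in WT HFSCs against 11.1 and 5.94 in Msx2-KO (log2 fold change 1.76, edgeR adjusted p = 0.633). In EpdSCs Nrg1 had 60.7 and 96.7 in WT against 5.09 and 45.2 in Msx2-KO (log2 fold change -2.21, limma adjusted p = 0.247), and Nrg2 had 141 and 218.1 in WT against 304 and 99.8 in Msx2-KO. Erbb4 was at 0 in both Msx2-KO HFSC libraries, at 0.934 and 1.29 in WT, and was not analysed in EpdSCs.

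Of the pathway genes, Rhbdf1, of the ligand shedding list, was the gene that passed the test. It encodes iRhom1, which with iRhom2, the product of Rhbdf2, carries ADAM17 to the cell surface. Rhbdf1 had 1358 and 1446 in WT EpdSCs against 112 and 166 in Msx2-KO EpdSCs, and fell by 3.35 on the log2(value + 1) scale (SE 0.50, limma adjusted p = 0.0416, from 0.00917 to 0.352 over the alternatives). The call held under 5 of 11 alternatives and was lost with library totals and with coding totals. In HFSCs it had 35.0 and 40.1 normalised CPM in WT against 33.4 and 53.1 in Msx2-KO, with overlap. Rhbdf2 had 1152 and 928 in WT EpdSCs against 4697 and 754 in Msx2-KO, and Adam17, the main protease of Tgfa, Areg and Hbegf precursors, had 1355 and 1022 in WT against 1552 and 1371 in Msx2-KO (log2 fold change 0.31, adjusted p = 0.657). Rhbdf2 in HFSCs was higher in both Msx2-KO libraries, at 21.9 and 45.4 against 17.6 and 12.6, with an edgeR adjusted p of 0.439.

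In the Ras-MAPK cascade of EpdSCs, 5 of 10 genes lay above and 4 below WT without overlap, beside 27.8% and 44.5% of all genes, and 0 were called, beside 9.35%. Mapk3, which encodes ERK1, had 882 and 641 in WT against 12.7 and 301 in Msx2-KO (log2 fold change -3.55, limma adjusted p = 0.213), and Map2k2, which encodes the kinase MEK2, had 1398 and 1251 in WT against 50.9 and 217.7 in Msx2-KO (log2 fold change -3.63, adjusted p = 0.0840). For both genes each Msx2-KO library lay below both WT libraries. In HFSCs the same list of 10 held 1 gene above and 2 below, beside 17.5% and 33.5% of all genes, with Araf, a RAF kinase that overlaps the Syn1 gene on the other strand, at 45.0 and 38.5 in WT against 27.4 and 16.3 in Msx2-KO (log2 fold change -0.93, edgeR adjusted p = 0.406).

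Of the adaptors and ubiquitin ligases 0 of 10 were called in either cell type, beside 0% of all genes in HFSCs and 9.35% in EpdSCs. Grb2, the adaptor that links the receptors to Ras, had 596 and 610 in WT EpdSCs against 1476 and 1443 in Msx2-KO (log2 fold change 1.27, limma adjusted p = 0.146), whereas the adaptor Gab2 had 159 and 101 in WT against 6.37 and 53.2 in Msx2-KO (log2 fold change -2.67, adjusted p = 0.189) and Cblc, a ubiquitin ligase gene, had 347 and 290 in WT against 6.37 and 212 in Msx2-KO (log2 fold change -3.01, adjusted p = 0.292). In HFSCs Sos1 and Sos2, exchange factors of Ras, lay below WT in both Msx2-KO libraries, Sos2 at 34.0 and 41.4 in WT against 0 and 11.5 in Msx2-KO (log2 fold change -2.74, edgeR adjusted p = 0.654). Ptpn11, a phosphatase needed for Ras activation, had 71.2 and 59.5 in WT HFSCs against 58.5 and 105 in Msx2-KO, and Hras had 28.8 and 33.9 against 32.6 and 42.9, both with overlap.

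In the PI3K branch Akt1 was higher in the libraries labelled Msx2-KO of both cell types without passing. It had 34.0 and 33.3 normalised CPM in WT HFSCs against 89.8 and 50.9 in Msx2-KO (log2 fold change 1.06, edgeR adjusted p = 0.269), and 1324 and 1220 in WT EpdSCs against 4281 and 4031 in Msx2-KO (log2 fold change 1.71, limma adjusted p = 0.0972). Pik3r1, the regulatory subunit of PI3K, was lower without overlap in both, at 440 and 565 against 363 and 361 in HFSCs (adjusted p = 0.479) and at 2350 and 2393 against 755 and 892 in EpdSCs (adjusted p = 0.116). Pik3cb, a catalytic subunit, had 36.2 and 42.0 in WT HFSCs against 3.81 and 9.55 in Msx2-KO (log2 fold change -2.56, edgeR adjusted p = 0.144).

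Inhibitors of the receptors and of Ras included the lowest p-values of the pathway in HFSCs. Lrig3, of a family of membrane proteins that dampen growth factor receptors, had 174 and 212 in WT HFSCs against 85.4 and 83.8 in Msx2-KO (log2 fold change -1.19, SE 0.23, edgeR adjusted p = 0.143). Nf1, which encodes the Ras inhibitor neurofibromin, had 76.0 and 80.2 in WT HFSCs against 32.7 and 34.0 in Msx2-KO (log2 fold change -1.23, SE 0.25, adjusted p = 0.143), and 575 and 726 in WT EpdSCs against 96.8 and 217.7 in Msx2-KO (log2 fold change -2.15, limma adjusted p = 0.111). Genes on the other strand, such as Omg, lie within Nf1. Lrig1, a marker of upper follicle stem cells that also dampens EGFR, had 69.0 and 60.5 in WT HFSCs against 82.2 and 192 in Msx2-KO (log2 fold change 1.08, edgeR adjusted p = 0.375). Spred2 in EpdSCs had 835 and 1409 in WT against 12043 and 2800 in Msx2-KO (log2 fold change 2.42, limma adjusted p = 0.161).

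Genes known to follow ERK activity did not share a direction. In EpdSCs Etv5 had 285 and 342 in WT against 3543 and 1336 in Msx2-KO (log2 fold change 2.80, limma adjusted p = 0.0864), and Ccnd1, the gene of cyclin D1, had 1077 and 1555 in WT against 8594 and 2018 in Msx2-KO (log2 fold change 1.69, adjusted p = 0.249). Epha2 had 999 and 1403 in WT against 448 and 274 in Msx2-KO (log2 fold change -1.75, adjusted p = 0.122). In HFSCs Phlda1 had 15.2 and 31.4 in WT against 59.1 and 46.1 in Msx2-KO (log2 fold change 1.18, edgeR adjusted p = 0.339). Of this list 3 of 8 genes lay above and 2 below WT in EpdSCs, beside 27.8% and 44.5% of all genes. In HFSCs 3 of 9 lay above and 0 below, beside 17.5% and 33.5%. Of those above, Dusp4 passed the filter on low counts through its Msx2-KO libraries only. It had 6 and 2 counts in WT against 74 and 15 in Msx2-KO. Spry4 lay below WT, at 10 and 2 counts against 0 and 0, but did not pass that filter, so these counts partly follow the filter.

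**Figure D5:**
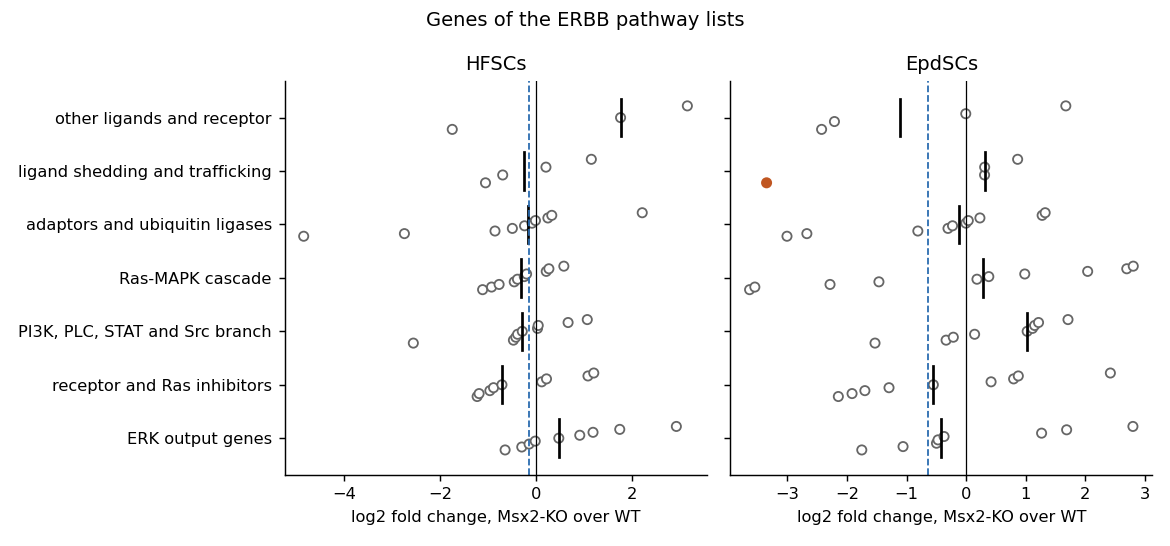
Log2 fold change, Msx2-KO over WT, of each gene of 7 pathway lists, from edgeR in HFSCs and limma in EpdSCs. Each circle is a gene, the filled circle passed the threshold, short black lines are list medians and the dashed line is the median of all genes tested. The filled circle is Rhbdf1 in EpdSCs, at -3.35.

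The genes whose profile over the 8 libraries was most like that of Egfr were Grhl2, a transcription factor of epithelia, Calu and Zc3h4, out of 1568 genes with a mean of at least 100 coding CPM in each table. Their Euclidean distances from Egfr on centred log2 values were 0.621, 0.801 and 0.843. Egfr had 251 and 277 coding CPM in WT EpdSCs against 65.3 and 385 in Msx2-KO EpdSCs, and Grhl2 had 172 and 238 in WT against 38.4 and 275 in Msx2-KO, so both were lowest in Msx2-KO replicate 1. Erbb2 ranked 1047th and Erbb3 1433rd in likeness to Egfr. The same could not be done for Areg, which was followed in EpdSCs only.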

How the data were processed

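RNA was sequenced from 8 libraries made with a SMARTer Stranded kit. Per the submitters' processing notes, reads were aligned to GRCm38/mm10 with STAR 2.7.3a and handled in Partek. The study's methods name GENCODE M25 as annotation. The HFSC table as deposited by the authors holds an estimated count for each gene and no scaling was applied. The EpdSC table as deposited holds a normalized signal, with a single count worth 1.08 and 0.949 in WT against 1.27 and 0.674 in Msx2-KO. Since 80.5% to 87.4% of low values were whole within 0.1 of a count, reads were not recovered for the table and no count test was run there, but the values of Btc and Areg were whole within that tolerance and are also given as estimated counts. The authors' own comparisons (p-values, false discovery rates, ratios, fold changes and fitted means) were not used. Of the value columns, 0 were left unmapped.

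HFSC counts were rounded, passed through filterByExpr, given TMM factors and fitted with the quasi-likelihood test of edgeR 4.0.16. EpdSC values entered limma 3.58.1 as log2(value + 1), unfiltered. Genotypes were compared within a cell type, Benjamini-Hochberg adjustment covered every gene tested, and calls needed an adjusted p under 0.05 and a fold change over 2. For edgeR the SE is the log2 fold change over the square root of F. Both fits were run on simulated data less variable than the HFSC data, whose common dispersion was 0.823. That run does not cover data this variable. Exon lengths and positions came from GENCODE M21, which held 23244 of 23861 HFSC and 15859 of 16231 EpdSC symbols, and sequences from RefSeq. The 10 genes, 7 pathway lists and 10 marker lists were chosen with earlier results of these data known. Named from each pathway list were the gene with the highest level, called genes, and the 2 largest changes without overlap at a mean of at least 20. Erbb4, Lhx2, Lor, Jun, Atf3, Nrg4, Dusp4, Spry4 and, in HFSCs, Sbsn and Cblc were named after their values were seen. Some genes that the rule or the lists hold are not reported here. HFSC alternatives were DESeq2 1.42.0, limma-trend (prior count 3), RLE factors, library totals, omission of mitochondrial and ribosomal RNA genes, no filter and at least 10 counts in every library. EpdSC alternatives were pseudocounts of 0.1 and 10, a mean of at least 10, library totals, an intensity trend and, chosen after seeing the data, coding gene totals. A replicate block, no fold threshold and each library left out were tried in both. R 4.3.3, Python 3.11.15 and matplotlib 3.10.9 were used.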

Additional observations from a re-analysis of the deposited data

Results flagged for a closer look

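Hbegf was picked out because its libraries moved in opposite directions in the 2 cell types. Both HFSC libraries labelled Msx2-KO, at 0 and 0 estimated counts, lay below WT at 8 and 16, and both EpdSC libraries labelled Msx2-KO, at 101 and 368, lay above WT at 42.2 and 69.2, a log2 fold change of 1.81 in EpdSCs. The difference between the cell types was not tested, because the tables were deposited in different units. It rests on the deposited scaling, since on the level per kb of exon the EpdSC groups overlapped.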

How the results depend on the processing

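Replicate numbers did not pair the libraries (correlation of same-numbered deviations -0.0345 in HFSCs and -0.0225 in EpdSCs), so the replicate block is given for completeness. In HFSCs 0 genes were called, against 690 with DESeq2, 51 with library totals, 2 with at least 10 counts in every library, 231 with the replicate block, 1407 with limma-trend and 132 to 9272 with a library left out. Of the pathway genes limma-trend called 1, Lrig3, and leaving out a library gave 0 to 22. Of the 7 receptor system genes it gave 0 to 2, namely Errfi1 without WT replicate 1, Btc without Msx2-KO replicate 1, and Hbegf, which entered the test through its WT counts only, and Tgfa without Msx2-KO replicate 2. Without WT replicate 2 Hbegf did not pass the filter on low counts. In EpdSCs 1518 genes were called and 0 to 10376 with a library left out. The 1 call among the 9 genes became 0 with a pseudocount of 0.1, a mean of at least 10 or the replicate block, 2 with an intensity trend, and 0 to 5 with a library left out. The 1 pathway call became 0 with a pseudocount of 0.1, library totals, coding gene totals or the replicate block, 2 with a pseudocount of 10, 4 with an intensity trend, and 0 to 29 with a library left out.

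Log2 fold changes that turned sign were, in HFSCs, Erbb3 at 0.019 with at least 10 counts in every library and Btc at -0.29 with the replicate block, and in EpdSCs Tgfa at -0.052 with library totals and -0.49 with coding gene totals. With a library left out the ranges in HFSCs were -0.66 to 0.13 for Erbb2, -0.49 to 0.25 for Erbb3, -7.24 to 0.24 for Tgfa and -2.35 to 0.26 for Errfi1. The -7.24 of Tgfa rested on a lone Msx2-KO library at 0 counts. In EpdSCs the ranges were -0.87 to 0.84 for Egfr, -1.26 to 0.29 for Erbb2, -2.06 to 0.36 for Epgn and -1.76 to 2.15 for Tgfa. Of the single-gene values, 66 in HFSCs and 76 in EpdSCs kept both direction and side of the threshold. The causes were not tested. With 2 libraries a group, a fit without 1 of them assumes that the lone library varies like the other group, and low ligand counts limit what could be detected.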
